A study of Mus musculus with 22 samples.

Results

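The Fc gamma receptors of the mouse were followed through sensory ganglia and cultured neurons by 6 genes, out of 55487 genes listed in the deposited count tables. They were Fcgr4, Fcgr1, Fcgr3 and Fcgr2b, which encode the receptor chains, Fcer1g, which encodes the signalling chain of the activating receptors, and Fcgrt, which encodes the neonatal Fc receptor. The members were named by symbol, with no threshold on a value. The family itself was chosen from earlier results of these data, the differences between imiquimod and vehicle ganglia among them, so those differences are given for the members as a description, with no p-value. All 6 members passed the filter on low counts in the ganglia, where 17197 genes were tested.

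Fc gamma receptors bind the constant region of IgG and tie antibody to the cells that take up or attack what it coats. The activating receptors signal through the gamma chain and its ITAM, which recruits the kinase Syk after phosphorylation by Src-family kinases. The inhibitory receptor carries an ITIM, which recruits the lipid phosphatase SHIP1. In peripheral nerve and ganglia these receptors are known mainly from resident macrophages, and the activating receptor encoded by Fcgr1 has also been described on sensory neurons of rodents.

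RNA was sequenced from dorsal root ganglia, which hold the cell bodies of sensory neurons, and from cultured neurons of such ganglia. The series addresses periostin, a secreted matrix protein encoded by Postn, in psoriasis. The ganglia came from mice labelled Postn knock out (KO) or wild type (WT) after 5 days of imiquimod (IMQ), a TLR7 agonist that inflames the skin, or of vehicle. The groups were KO IMQ (2 libraries), KO vehicle (3), WT IMQ (2) and WT vehicle (3). The cultures were KO or WT neurons kept for 72 h with recombinant POSTN (rPOSTN) or without it (control), with 3 libraries in each of the 4 groups. The labels give neither strain, age nor sex, nor whether ganglia of several mice were pooled, and no label says that replicates came from separate animals or cultures. The p-values therefore measure the spread between these libraries, which may be technical.

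Library totals ran from 16.7 to 24.1 M (mega) counts. Postn averaged 5.9 ± 2.15 counts per M counts (CPM) in KO IMQ and 46.5 ± 4.55 CPM in WT IMQ ganglia (SD, n = 2 each), and 4.11 ± 0.854 CPM in KO vehicle and 22.8 ± 3.0 CPM in WT vehicle ganglia (SD, n = 3 each). In cultures Postn had 83.4, 71.7 and 455 CPM in KO rPOSTN and 110, 108 and 408 CPM in KO control libraries, against means of 879 ± 175 CPM in WT rPOSTN and 844 ± 136 CPM in WT control cultures (SD, n = 3 each). Postn transcripts were thus present under the KO label, most in library 3 of each KO culture group. The summed CPM of 9 sensory neuron markers ran from 8440 to 9740 in ganglia and from 4480 to 5820 in cultures, where all 9 were detected. Some libraries stood apart. WT IMQ library 2 listed Xist at 0.176 CPM, against 196 to 235 CPM in the other ganglion libraries. Among WT cultures, library 3 of each group had 1240 CPM of Xist with rPOSTN and 1180 CPM without, and the other 4 libraries at most 0.825 CPM, while KO cultures had 602 to 1250 CPM. KO vehicle library 1 had 294 CPM of the haemoglobin gene Hbb-bs. The summed CPM of 7 neutrophil markers spread from 21.8 to 261 within KO vehicle ganglia. Levels are CPM on TMM-scaled library sizes, scaled within each table, so a level in cultures beside one in ganglia is a description.

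The sequence just upstream of the genes is shown for 4 members, the genes of the receptor chains. A link between these sequences and the differences between IMQ and vehicle ganglia was not tested. These are RefSeq promoters in GRCm38.p6, from 250 bases before to 50 bases after the start site, 5′ to 3′ on the gene's own strand. Capitals mark GAGGAA, the core bound by the myeloid factor PU.1, TTCNNNGAA, the GAS element of STAT factors, and GAAANNGAAA, the core of the interferon-stimulated response element, each searched on both strands. Fcgr4 lies on the plus strand at chr1:171018676-171018975, Fcgr1 on the minus strand at chr3:96293920-96294219, Fcgr3 on the minus strand at chr1:171059354-171059653 and Fcgr2b on the minus strand at chr1:170976022-170976321.
Fcgr4: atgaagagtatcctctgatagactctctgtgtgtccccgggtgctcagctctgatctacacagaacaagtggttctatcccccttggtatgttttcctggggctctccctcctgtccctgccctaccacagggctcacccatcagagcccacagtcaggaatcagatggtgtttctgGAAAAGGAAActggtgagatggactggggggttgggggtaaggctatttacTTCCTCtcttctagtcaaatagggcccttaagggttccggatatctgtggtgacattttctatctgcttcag
Fcgr1: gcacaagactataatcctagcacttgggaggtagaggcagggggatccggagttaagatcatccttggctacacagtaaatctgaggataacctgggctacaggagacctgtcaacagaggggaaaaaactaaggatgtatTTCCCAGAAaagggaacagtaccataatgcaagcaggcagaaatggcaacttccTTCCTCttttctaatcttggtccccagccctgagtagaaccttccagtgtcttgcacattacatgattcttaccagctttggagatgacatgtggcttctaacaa
Fcgr3: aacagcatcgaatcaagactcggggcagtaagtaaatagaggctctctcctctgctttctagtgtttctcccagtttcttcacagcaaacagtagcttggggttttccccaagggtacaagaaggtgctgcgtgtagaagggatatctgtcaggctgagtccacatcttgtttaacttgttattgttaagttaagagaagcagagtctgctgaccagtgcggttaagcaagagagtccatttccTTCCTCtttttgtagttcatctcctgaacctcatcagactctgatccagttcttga
Fcgr2b: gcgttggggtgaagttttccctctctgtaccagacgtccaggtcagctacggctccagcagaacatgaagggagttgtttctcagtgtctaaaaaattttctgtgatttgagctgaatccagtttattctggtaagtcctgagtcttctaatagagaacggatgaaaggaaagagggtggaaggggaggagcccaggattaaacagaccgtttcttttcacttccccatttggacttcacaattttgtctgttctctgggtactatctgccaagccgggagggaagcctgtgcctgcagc

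GAGGAA or its reverse complement TTCCTC began at position -22 of the Fcgr4 promoter, at -55 of Fcgr1 and at -6 of Fcgr3, counted from the start site. The 3 windows of Fcgr2b, Fcer1g and Fcgrt held none. This hexamer was in 28.3% of the 27025 promoters of the same length. TTCNNNGAA was found in Fcgr1 alone among the members, at -109, and in 8.47% of all promoters. GAAANNGAAA was found in Fcgr4 alone, at -73, and in 3.49% of all promoters. Among 149 promoters of genes called higher with IMQ in WT ganglia, at an adjusted p below 0.05 by edgeR, the hexamer was in 53.7%, TTCNNNGAA in 10.1% and GAAANNGAAA in 12.1%, against 26.8%, 6.85% and 3.03% of the 12325 promoters of tested genes. These shares are a description with no test. The 149 promoters come from a contrast known when the family was chosen, and members may be among them. Their shares therefore lend no weight to the matches in the members. No match in the members overlapped another. A match describes letters in this window and does not show a bound site.

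Fcgr4 encodes the activating receptor FcγRIV and had the largest difference of the 6 members between IMQ and vehicle ganglia in both genotypes. Its level was 10.7 and 8.99 CPM in the KO IMQ libraries, against 0.728, 0.316 and 0.842 CPM in the KO vehicle libraries. It was 15.3 and 9.37 CPM in the WT IMQ libraries, against 0.768, 0.576 and 0.6 CPM in the WT vehicle libraries. Every IMQ library was more than 10 times as high as any vehicle library of its genotype. In reads, vehicle libraries held 7 to 16 counts of the gene and IMQ libraries 152 to 301. The log2 difference of IMQ over vehicle was 3.99 ± 0.34 (SE) in KO and 4.25 ± 0.33 in WT ganglia.

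Fcer1g, the common gamma chain needed by the activating receptors for surface expression and signalling, came next. It had 30.4 and 21.7 CPM in KO IMQ, against 7.95, 3.84 and 6.74 CPM in KO vehicle libraries. In WT ganglia it had 36.5 and 34.7 CPM with IMQ, against 6.5, 5.29 and 3.85 CPM with vehicle. The IMQ and vehicle ranges did not overlap in either genotype. The log2 difference was 2.09 ± 0.29 in KO and 2.78 ± 0.29 in WT ganglia.

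Fcgr1 encodes FcγRI (CD64), the high-affinity receptor. Its level was 7.71 and 5.56 CPM in KO IMQ, against 3.46, 2.44 and 3.05 CPM in KO vehicle libraries. It was 8.98 and 9.01 CPM in WT IMQ, against 2.54, 1.89 and 1.7 CPM in WT vehicle libraries. IMQ libraries were again above all vehicle libraries of their genotype, with a narrower gap in KO. The log2 difference was 1.16 ± 0.22 in KO and 2.14 ± 0.23 in WT ganglia.

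Fcgr3 encodes the low-affinity activating receptor FcγRIII. It had 24.3 and 20.8 CPM in KO IMQ, against 11.0, 6.6 and 10.8 CPM in KO vehicle libraries. It had 24.3 and 22.2 CPM in WT IMQ, against 12.1, 9.22 and 8.05 CPM in WT vehicle libraries. The ranges did not overlap, and the log2 differences were close in size, 1.26 ± 0.23 in KO and 1.25 ± 0.23 in WT.

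Fcgr2b, which encodes the inhibitory receptor FcγRIIB, had the smallest difference of the receptor genes. Its level was 14.8 and 15.1 CPM in KO IMQ, against 7.58, 8.13 and 9.53 CPM in KO vehicle libraries. It was 14.5 and 13.6 CPM in WT IMQ, against 7.8, 8.38 and 7.75 CPM in WT vehicle libraries. The ranges did not overlap, and the log2 difference was 0.83 ± 0.13 in KO and 0.82 ± 0.13 in WT ganglia. Transcripts of Fcgr2b and Fcgr3 share 166 windows of 50 bases, 4.48% and 10.2% of their windows, and none of 150 bases. How the counting treated reads in the shared stretch is not given in the sources used here.

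Fcgrt stood apart from the others. It encodes the heavy chain of the neonatal Fc receptor, which pairs with beta-2 microglobulin and recycles IgG and albumin, and it is expressed in many cell types. It had 41.0 and 35.6 CPM in KO IMQ, against 50.5, 35.4 and 37.9 CPM in KO vehicle libraries. It had 47.2 and 50.2 CPM in WT IMQ, against 60.7, 48.5 and 39.6 CPM in WT vehicle libraries. The ranges overlapped in both genotypes, and the log2 difference was -0.11 ± 0.20 in KO and -0.03 ± 0.20 in WT. B2m, its partner, averaged 417 ± 20.5 CPM in KO IMQ and 312 ± 98.7 CPM in KO vehicle ganglia, and 446 ± 33.1 CPM in WT IMQ and 264 ± 82.4 CPM in WT vehicle ganglia. It did not pass the test in either (adjusted p = 0.65 in KO and 0.499 in WT, edgeR).

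**Figure D1:**
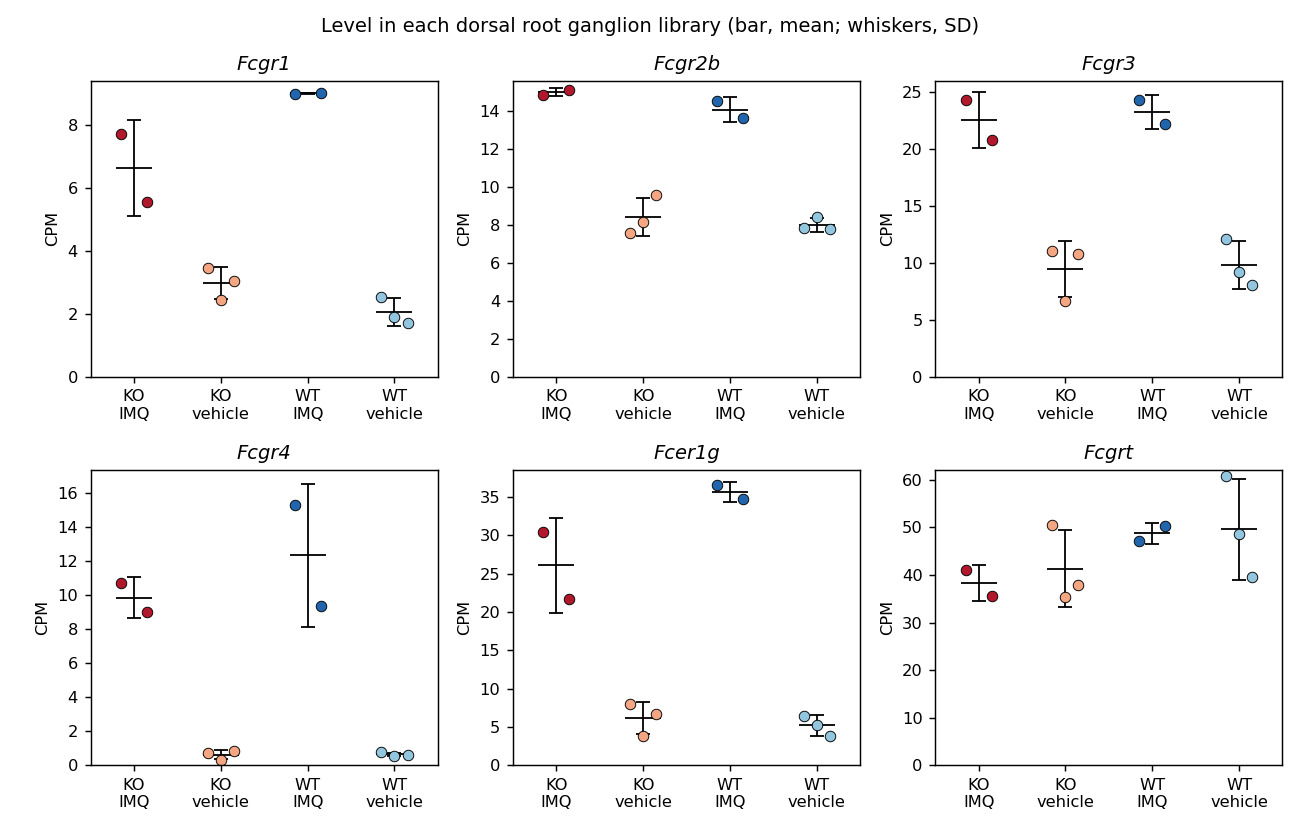
CPM of the 6 members in each ganglion library, with 1 point per library, the group mean as a bar and the SD as whiskers, for KO IMQ, KO vehicle, WT IMQ and WT vehicle. For every member but Fcgrt the IMQ points lie above all vehicle points of the same genotype.

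Of all genes tested, 1.09% were called higher with IMQ in KO and 1.12% in WT ganglia. The family was chosen with these contrasts known, so no calls are counted for the members there and nothing is read from the ranges that do not overlap. Over the 12 alternatives run for each genotype, the log2 difference of Fcgr4 ran from 3.63 to 4.29 in KO and from 3.85 to 4.55 in WT. That of Fcer1g ran from 1.83 to 2.41 in KO and from 2.60 to 2.97 in WT, and that of Fcgr1 from 0.91 to 1.37 in KO and from 2.03 to 2.33 in WT. Without WT IMQ library 2, which stood apart in Xist, the WT differences were 4.55 for Fcgr4, 2.81 for Fcer1g, 2.14 for Fcgr1, 1.31 for Fcgr3 and 0.86 for Fcgr2b.

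Calls rest on the edgeR quasi-likelihood test at an adjusted p below 0.05, where the Benjamini-Hochberg adjustment runs over every gene in the comparison. Whether the response to IMQ differed between genotypes was asked by the difference of the IMQ effects, KO minus WT. None of the 6 members was called for it, nor was any gene (0%) by edgeR, while DESeq2 called 5 genes. Of 17197 genes tested by edgeR, 364 had an unadjusted p under 0.05. That is fewer than this cutoff would pass if no gene differed and p-values were uniform. Fcgr1 had the largest value, a log2 difference of -0.98 ± 0.32 for KO minus WT (adjusted p = 0.999, unadjusted p = 0.013, edgeR), with an approximate 95% interval of -1.62 to -0.35. Fcer1g had -0.69 ± 0.41 (adjusted p = 0.999, edgeR). Fcgr4, Fcgr3, Fcgr2b and Fcgrt lay between -0.26 and 0.02. Over the alternatives Fcgr1 ran from -1.24 to -0.77 and never passed the threshold.

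Genotype was then compared at each treatment. Among IMQ ganglia none of the 6 members differed between KO and WT past the threshold, where 0.00581% of all genes were called. Fcgr1 averaged 6.63 ± 1.52 CPM in KO IMQ and 9.0 ± 0.0222 CPM in WT IMQ (SD, n = 2 each), a log2 difference of -0.44 ± 0.24 (adjusted p = 0.997, edgeR). Fcer1g averaged 26.0 ± 6.13 CPM in KO IMQ and 35.6 ± 1.34 CPM in WT IMQ, a difference of -0.45 ± 0.31 (adjusted p = 0.997, edgeR). Both KO libraries lay below both WT libraries for Fcgr1, Fcer1g and Fcgrt, and above both for Fcgr2b. The share of all genes whose libraries separate this way was not computed, so nothing is read from it. The Fcgr4 and Fcgr3 ranges overlapped.

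Among vehicle ganglia none of the 6 members was called either, where 0.0116% of all genes were. Fcgr1 averaged 2.98 ± 0.513 CPM in KO vehicle and 2.04 ± 0.442 CPM in WT vehicle (SD, n = 3 each), a log2 difference of 0.55 ± 0.22 (adjusted p = 1, unadjusted p = 0.0341, edgeR). Its ranges overlapped, as did those of the other 5 members, whose differences lay between -0.27 and 0.24. Same-numbered vehicle libraries deviated together for numbers 1 and 2 (r = 0.872 and 0.83) and little for number 3 (r = 0.161). No label says that the numbers pair libraries. Taken as 3 pairs, Fcgr1 was higher in KO in each, at 3.46 against 2.54, 2.44 against 1.89 and 3.05 against 1.7 CPM. Fcgrt was lower in KO in each pair. With the pairs as a block the log2 difference was 0.55 for Fcgr1 (adjusted p = 0.887, edgeR) and -0.26 for Fcgrt (adjusted p = 0.997, edgeR), and neither was called. The approximate 95% interval of the Fcgr4 difference ran from -0.86 to 0.72.

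**Figure D2:**
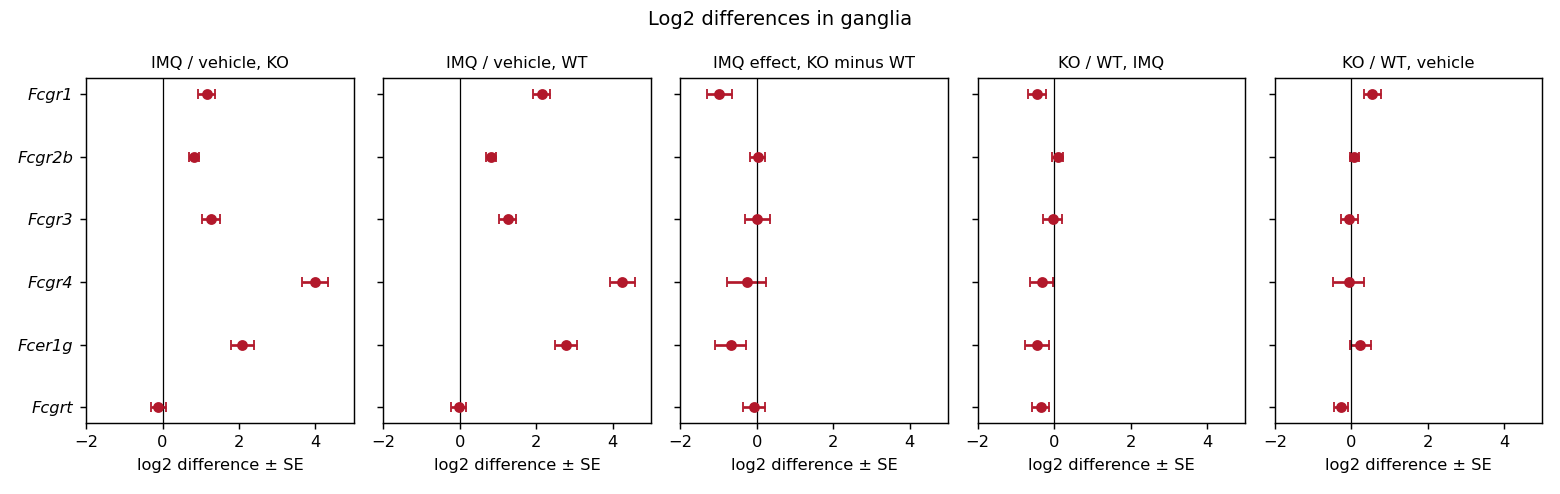
Log2 differences ± SE of the 6 members in the 5 ganglion comparisons, IMQ over vehicle in KO and in WT, the difference of these, and KO over WT in IMQ and in vehicle ganglia. In the IMQ panels every member but Fcgrt lies to the right of 0, which is a description, and in the other 3 comparisons no member was called.

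Levels between genes were compared per kilobase of exons. In vehicle ganglia Fcgrt stood highest, with 16.9 to 24 CPM per kb in KO and 18.8 to 28.9 in WT. Fcer1g and Fcgr3 followed at 3.8 to 9.09 CPM per kb over both genotypes. Fcgr2b had 1.31 to 1.65 CPM per kb, Fcgr1 0.657 to 1.34 and Fcgr4 0.252 to 0.67. In IMQ ganglia Fcer1g was the highest member, with 24.8 to 34.7 CPM per kb in KO and 39.6 to 41.8 in WT, above Fcgrt at 16.9 to 19.5 in KO and 22.5 to 23.9 in WT. Fcgr4 then stood at 7.16 to 8.54 CPM per kb in KO and 7.46 to 12.2 in WT, above Fcgr2b and Fcgr1 in every IMQ library and below Fcgr3.

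The make-up of the receptor set was described by the share of each gene in the summed CPM per kb of Fcgr4, Fcgr1, Fcgr3 and Fcgr2b. Fcgr4 made up 30.4% and 29.9% of this sum in the KO IMQ libraries, against 3.94% to 6.88% in the KO vehicle libraries. It made up 37.9% and 28.6% in the WT IMQ libraries, against 5.77% to 6.72% in the WT vehicle libraries. Fcgr3 held the largest share in every ganglion library, 49.8% to 50.2% in KO IMQ against 59.4% to 66.2% in KO vehicle, and 43.5% to 49.0% in WT IMQ against 65.2% to 70.4% in WT vehicle. The inhibitory Fcgr2b held 9.13% to 10.9% in KO IMQ against 13.7% to 22% in KO vehicle, and 7.78% to 9.03% in WT IMQ against 13.6% to 18.8% in WT vehicle. With lengths of the longest coding transcript, chosen after the data were seen, the Fcgr4 share was 24.7% to 25.3% in KO IMQ and 3.0% to 5.33% in KO vehicle.

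**Figure D3:**
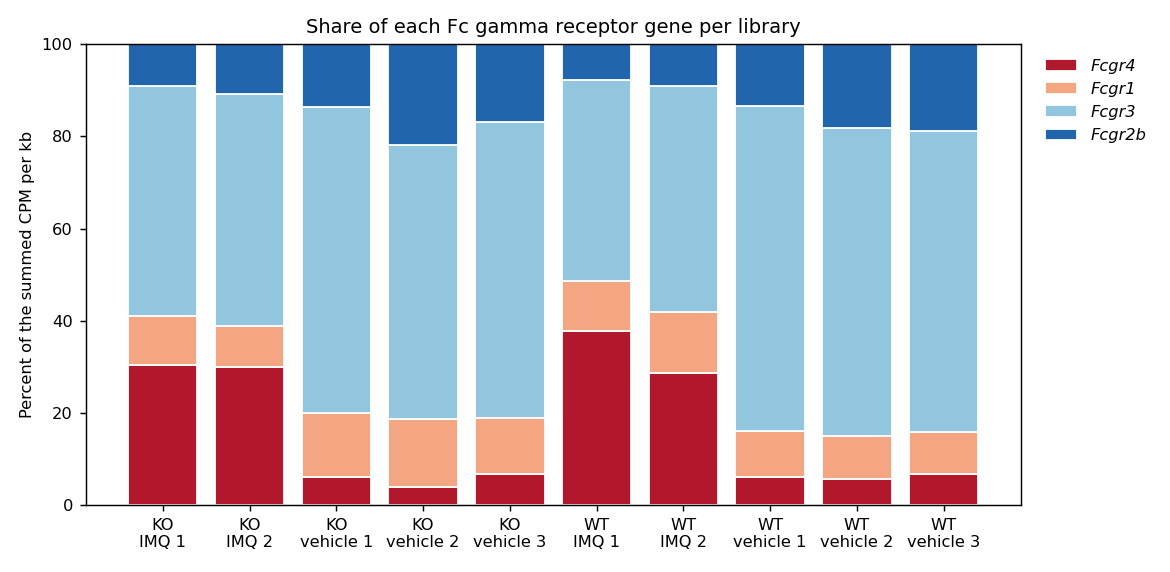
Percent of the summed CPM per kb held by Fcgr4, Fcgr1, Fcgr3 and Fcgr2b in each ganglion library, IMQ left of vehicle within KO and within WT. The Fcgr4 part is 28.6% to 37.9% in the 4 IMQ libraries and under 7% in the 6 vehicle libraries.

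The ratio of the activating to the inhibitory genes shifted unevenly. The log2 ratio of Fcgr4 over Fcgr2b, in CPM, was 3.24 higher in KO IMQ than in KO vehicle ganglia and 3.40 higher in WT IMQ than in WT vehicle ganglia. For Fcer1g over Fcgr2b the shift was 1.28 in KO and 1.99 in WT, and for both ratios the ranges did not overlap. For Fcgr1 over Fcgr2b it was 0.31 in KO, where ranges overlapped, and 1.34 in WT, where they did not. For Fcgr3 over Fcgr2b it was 0.45 in each genotype, with overlap in KO.

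Markers of macrophages moved in the same libraries. The summed CPM of 13 macrophage markers was 449 to 510 in KO IMQ against 160 to 175 in KO vehicle ganglia, and 511 to 567 in WT IMQ against 160 to 187 in WT vehicle ganglia. Of the 13 markers, 9 were called higher in KO, where 1.09% of all genes were, and 8 in WT, where 1.12% were. None was called lower. In whole tissue, more macrophages and more RNA of a gene per macrophage cannot be told apart. Their part in the members' values was not tested, but the ratios to single markers can be given.

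The shift of these ratios depended on the marker. Against Csf1r, the receptor for the macrophage growth factors CSF1 and IL34, the Fcgr3 ratio had a log2 shift of 0.07 in KO and 0.02 in WT, with overlapping ranges. The Fcgr4 ratio to Csf1r was higher by 2.87 in KO IMQ and 2.97 in WT IMQ than in vehicle ganglia, and that of Fcer1g by 0.90 in KO and 1.56 in WT. The Fcgr1 shift against Csf1r was -0.07 in KO, with overlap, and 0.92 in WT, without. The Fcgr2b ratio to Csf1r was lower with IMQ in both genotypes without overlap, with a shift of -0.38 in KO and -0.43 in WT. Against Adgre1, the macrophage marker F4/80, the Fcgr4 ratio alone was higher with IMQ, by 1.02 in KO and 0.87 in WT, and the other 5 ratios were lower. Adgre1 itself differed by a log2 of 3.05 ± 0.16 in KO and 3.34 ± 0.16 in WT.

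Against Cd68, a lysosomal protein of macrophages, the Fcgr3 ratio was higher with IMQ by 0.30 in KO and 0.36 in WT, without overlap. The Fcgr2b ratio to Cd68 shifted by -0.15 in KO and -0.09 in WT, with overlap. Against Aif1, which encodes the macrophage marker IBA1, the Fcgr3 ratio was lower, by -0.62 in KO and -1.61 in WT, without overlap, and the Fcer1g ratio shifted by 0.22 in KO and -0.07 in WT, with overlap. The Fcgr4 ratio was higher without overlap against each of the 4 markers in both genotypes, by 3.10 in KO and 3.31 in WT for Cd68 and by 2.18 in KO and 1.34 in WT for Aif1. Fcgr4 also had the largest IMQ difference of the members, in a family chosen with that contrast known. The share of all genes whose ratios separate this way was not computed. Nothing is read from ranges of ratios that do not overlap.

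Markers of other cell types are given in the same way. The 7 neutrophil markers summed to 28.7 to 70.6 CPM in KO IMQ against 21.8 to 261 CPM in KO vehicle, and to 89.9 to 115 CPM in WT IMQ against 52.7 to 72.5 CPM in WT vehicle ganglia. The 5 NK cell markers summed to at most 1.23 CPM in any ganglion library. The 5 B cell markers summed to 4.79 to 8 CPM in KO IMQ against 3.16 to 8.86 CPM in KO vehicle, and to 5.28 to 6.67 CPM in WT IMQ against 4.91 to 10.1 CPM in WT vehicle ganglia. The 6 monocyte markers summed to 33.6 to 47 CPM in KO IMQ against 24 to 53 CPM in KO vehicle, and to 42.3 to 46.9 CPM in WT IMQ against 22.5 to 30 CPM in WT vehicle ganglia. The 5 mast cell markers summed to 14.6 to 24.7 CPM in KO IMQ against 10.6 to 18.4 CPM in KO vehicle, and to 19.2 to 20.3 CPM in WT IMQ against 7.65 to 12.9 CPM in WT vehicle ganglia. Neutrophil, monocyte and mast cell sums thus overlapped between IMQ and vehicle in KO and did not in WT. None of these markers was called for the difference of the IMQ effects, so no difference between genotypes is read from this.

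The 5 plasma cell markers summed to 37.7 to 38.6 CPM in KO IMQ against 25.9 to 33.8 CPM in KO vehicle, and to 48.5 to 53.1 CPM in WT IMQ against 26.8 to 31 CPM in WT vehicle ganglia. The 6 Schwann cell markers summed to 5090 to 5650 CPM in KO IMQ against 6120 to 7620 CPM in KO vehicle, and to 5180 to 7250 CPM in WT IMQ against 9230 to 14300 CPM in WT vehicle ganglia. Plasma cell sums were thus higher and Schwann cell sums lower with IMQ in both genotypes, without overlap. Also without overlap, fibroblast and satellite glia sums were higher and erythroid sums lower in both genotypes. Sensory neuron sums were lower in KO and higher in WT, likewise without overlap. T cell, NK cell, dendritic cell and endothelial cell sums overlapped in KO, in WT or in both. No Schwann cell marker was called in either genotype, and no plasma cell marker in KO. Nothing is read from sums that do not overlap. Most of the plasma cell sum was Sdc1. It averaged 27.9 ± 0.814 CPM in KO IMQ and 26.2 ± 2.14 CPM in KO vehicle ganglia. In WT it averaged 41.1 ± 1.93 CPM with IMQ and 26.3 ± 2.22 CPM with vehicle. Sdc1 is not particular to plasma cells here, since its group means in cultures were 238 to 276 CPM, against 0.586 to 1.15 CPM for Jchain. The part of all these cells in the members' values was not tested.

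Downstream of the receptors, a list of 30 genes of Fc receptor signalling was counted, itself chosen with earlier results known. Its counts, and the p-values given below for its genes, are therefore a description and no independent support. With IMQ, 12 of the 30 were called higher in KO ganglia, where 1.09% of all genes were, and 16 in WT ganglia, where 1.12% were, and 0 were called lower in either. The median log2 difference of the list was 1.10 in KO and 1.27 in WT, against -0.01 over all genes tested in each. The count fell to 5 in KO without IMQ library 1, and in WT to 9 without IMQ library 1, 7 without IMQ library 2, 10 without vehicle library 2 and 8 without vehicle library 3. A fit to the KO groups alone called 4.

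Syk, the kinase that binds the phosphorylated ITAM, averaged 12.6 ± 2.18 CPM in KO IMQ and 4.15 ± 1.11 CPM in KO vehicle, and 12.5 ± 1.57 CPM in WT IMQ and 4.39 ± 1.04 CPM in WT vehicle ganglia. Its log2 difference was 1.61 ± 0.26 in KO (adjusted p = 0.0183) and 1.51 ± 0.26 in WT (adjusted p = 0.0211, edgeR). Lyn, a Src-family kinase that phosphorylates the ITAM, rose by 1.31 ± 0.14 in KO (adjusted p = 0.00169) and by 1.31 ± 0.14 in WT (adjusted p = 0.00116, edgeR). The related kinases Src and Fyn, of wider expression, were not called.

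Phosphatases of the inhibitory arm moved the same way. Inpp5d, which encodes SHIP1, the phosphatase recruited by FcγRIIB, had 11.9 ± 0.999 CPM in KO IMQ and 4.48 ± 0.295 CPM in KO vehicle, and 12.9 ± 1.2 CPM in WT IMQ and 5.45 ± 0.687 CPM in WT vehicle ganglia. It rose by 1.41 ± 0.15 in KO (adjusted p = 0.00197) and by 1.24 ± 0.15 in WT (adjusted p = 0.00295, edgeR). Ptpn6, which encodes SHP-1, rose by 1.62 ± 0.18 in KO (adjusted p = 0.00207) and by 1.92 ± 0.18 in WT (adjusted p = 0.000665, edgeR). Tyrobp, the DAP12 adaptor, an ITAM chain of other myeloid receptors, rose by 2.11 ± 0.35 in WT (adjusted p = 0.0185, edgeR) and had 1.31 ± 0.35 in KO, where it was not called.

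Nckap1l, Hcls1 and Vav1, which act on the actin skeleton during uptake, also rose in both genotypes. Nckap1l differed by 1.84 ± 0.16 in KO (adjusted p = 0.00103) and 2.12 ± 0.16 in WT (adjusted p = 0.000241, edgeR). Of the 5 subunits of the phagocyte oxidase, Cybb and Ncf1 were called higher in both genotypes, against 1.09% of all genes in KO and 1.12% in WT. Cybb differed by 1.31 ± 0.14 in KO and 1.45 ± 0.14 in WT (adjusted p = 0.00197 and 0.000942, edgeR).

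**Figure D4:**
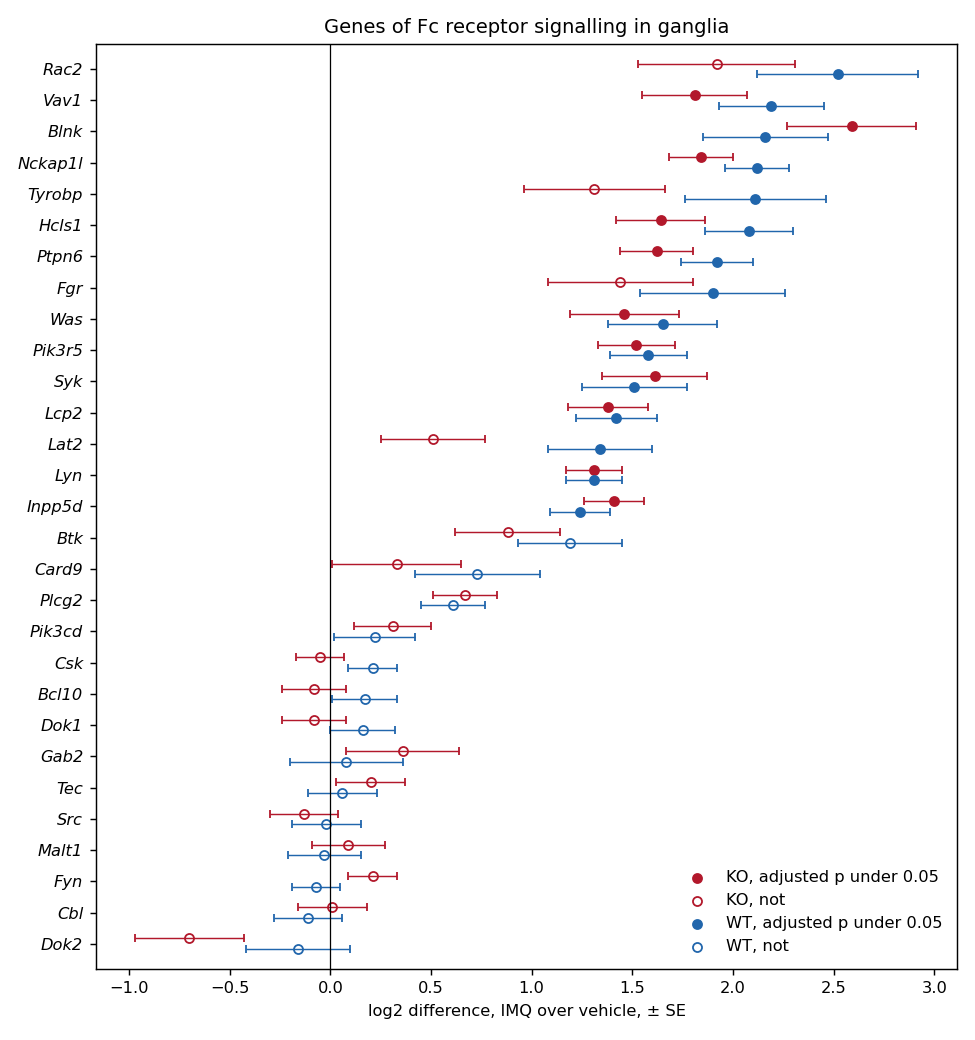
Log2 difference ± SE of IMQ over vehicle for 29 of the 30 genes of Fc receptor signalling, KO in red above WT in blue for each gene, filled where called at an adjusted p below 0.05. The 11 plotted genes called in KO are all among the 15 called in WT, and no gene was called lower.

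Among other Fc receptor and Fc receptor-like genes, 6 of 13 were tested and Fcrls and Fcrl5 were called higher with IMQ in both genotypes. Of all genes, 1.09% were called higher in KO and 1.12% in WT. Fcrls, a receptor-like gene of mouse microglia and macrophages, averaged 44.6 ± 8.51 CPM in KO IMQ and 8.31 ± 0.742 CPM in KO vehicle, and 55.7 ± 14.8 CPM in WT IMQ and 7.41 ± 1.02 CPM in WT vehicle ganglia. Fcrl5 held 114 reads over the KO IMQ libraries and 0 over the KO vehicle libraries, and 167 reads over the WT IMQ and 1 over the WT vehicle libraries.

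Transcripts of immunoglobulin genes, among them those of IgG, which these receptors bind, and of the joining chain gene Jchain differed widely in level. Of 10 such genes tested, none was called in KO, where 1.09% of all genes were called higher. Igkc and Jchain were called higher in WT, where 1.12% of all genes were. No IgG heavy chain gene was called in either genotype. Igkc, the kappa light chain constant gene, averaged 21.0 ± 5.54 CPM in KO IMQ and 6.46 ± 4.3 CPM in KO vehicle, and 29.1 ± 18 CPM in WT IMQ and 2.44 ± 0.6 CPM in WT vehicle ganglia (adjusted p = 0.439 in KO and 0.0265 in WT, edgeR). Ighm, the IgM heavy chain gene, had the highest CPM of them, 55.9 ± 15.1 CPM in KO IMQ and 22 ± 8.63 CPM in KO vehicle, and 50 ± 24.4 CPM in WT IMQ and 25.8 ± 1.19 CPM in WT vehicle ganglia, and was not called. Ighg2c, an IgG heavy chain gene, averaged 7.3 ± 1.72 CPM in KO IMQ and 6.49 ± 4.17 CPM in KO vehicle, and 10.4 ± 0.207 CPM in WT IMQ and 7.72 ± 1.2 CPM in WT vehicle ganglia, and was not called either. Ighg2b, another IgG heavy chain gene, ran from 1.8 to 4.38 CPM in KO IMQ against 0.0452 to 3.68 CPM in KO vehicle, and from 2.08 to 14.3 CPM in WT IMQ against 0.05 to 0.65 CPM in WT vehicle ganglia, and was not called.

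The myeloid factor PU.1, encoded by Spi1, averaged 7.59 ± 2.79 CPM in KO IMQ and 2.66 ± 1.24 CPM in KO vehicle, and 9.26 ± 0.894 CPM in WT IMQ and 2.36 ± 0.403 CPM in WT vehicle ganglia. It rose in WT by 1.97 ± 0.36 (adjusted p = 0.0298, edgeR) and had 1.54 ± 0.36 in KO (adjusted p = 0.118, edgeR). Of 20 interferon response genes tested, 6 were called higher in KO, where 1.09% of all genes were, and 4 in WT, where 1.12% were, none lower. They included Ifit1, an antiviral effector, at 1.79 ± 0.17 in KO and 1.51 ± 0.17 in WT (adjusted p = 0.00123 and 0.00218, edgeR), and Irf8, a myeloid interferon regulatory factor, at 1.23 ± 0.21 in KO and 1.70 ± 0.21 in WT (adjusted p = 0.027 and 0.00349, edgeR).

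Fcgr2b, Fcgr4, Fcgr3 and Fcer1g lie within 275.7 kb of chromosome 1 in GRCm38, while Fcgr1 is on chromosome 3 and Fcgrt on chromosome 7.

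The genes most like each member over the 10 ganglion libraries were named by Pearson's r of log2(CPM + 1), among 15056 genes with a mean of at least 1 CPM. For Fcgr4 they were C1qc (r = 0.996), Fcrl5 and Wfdc17, and for Fcer1g C1qb (r = 0.997), Clec12a and C1qc. For Fcgr3 they were C1qb (r = 0.988), C1qa and Dhx58, and for Fcgr1 Clec4a2 (r = 0.982), Gngt2 and Pou2f2. For Fcgr2b they were Mpeg1 (r = 0.986), Adgre1 and Lair1. For Fcgrt they were Mfge8 (r = 0.954), Ctsk and Anxa3. These 10 points share the IMQ and vehicle grouping, so genes with a large IMQ difference are close to each other.

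With group means removed, r over the same 10 libraries was 0.96 between Fcer1g and Fcgr3, 0.92 between Fcer1g and Fcgr1 and 0.85 between Fcer1g and Fcgrt. That of Fcgr2b with the other members lay between -0.38 and 0.33. The slope of log2 CPM on gene length also differed between ganglion libraries, from -0.215 per doubling of length in KO vehicle library 1 to 0.163 in KO IMQ library 2, and the exons of Fcer1g span 874 bases against 5790 for Fcgr2b. The part of this slope in the correlations was not tested.

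In cultured neurons the receptor genes were low. Fcgr4 had 2 reads over the 3 KO rPOSTN libraries and 0 over the 3 KO control libraries, which allows up to 0.053 CPM in that group. It had 3 reads over the WT rPOSTN and 6 over the WT control libraries, and it did not pass the filter in either table. Fcgr1 averaged 0.871 ± 0.514 CPM in KO rPOSTN and 0.571 ± 0.42 CPM in KO control cultures, and 1.19 ± 0.293 CPM in WT rPOSTN and 1.22 ± 0.202 CPM in WT control cultures (SD, n = 3 each). The group means of Fcgr3 ran from 1.31 to 2.32 CPM, those of Fcgr2b from 0.978 to 1.29 CPM and those of Fcer1g from 1.19 to 1.79 CPM. Macrophage transcripts were present in the same libraries, with Csf1r at 4.1 ± 0.699 CPM in KO rPOSTN and 4.81 ± 2.12 CPM in KO control cultures, and at 6.02 ± 0.902 CPM in WT rPOSTN and 7.09 ± 1.24 CPM in WT control cultures. The 13 macrophage markers summed to 137 to 149 CPM in KO rPOSTN against 132 to 153 CPM in KO control cultures, and to 158 to 171 CPM in WT rPOSTN against 161 to 178 CPM in WT control cultures. Of this sum Cd68 held 54.4 ± 16.6 CPM in KO rPOSTN and 51.9 ± 7.27 CPM in KO control cultures, and 39.4 ± 4.01 CPM in WT rPOSTN and 41.5 ± 2.29 CPM in WT control cultures, while its group means in ganglia ran from 4.8 to 10.9 CPM. Mertk averaged 57.5 CPM in KO rPOSTN, 57.0 CPM in KO control, 80.0 CPM in WT rPOSTN and 82.3 CPM in WT control cultures. In ganglia its group means ran from 17.6 to 28.0 CPM. The sum in cultures thus rests mostly on Cd68 and Mertk. Group means of C1qa ran from 3.44 to 6.49 CPM in cultures and from 19.9 to 82.0 CPM in ganglia. Those of Csf1r ran from 24.4 to 59.3 CPM in ganglia. Among the members Fcgrt alone stood well above the others in cultures, with group means from 26.3 to 30.7 CPM.

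None of the 5 members tested was called with rPOSTN, nor was any gene by edgeR, 0% of genes in KO and 0% in WT cultures. In KO 155 of 16756 and in WT 661 of 16639 genes had an unadjusted p under 0.05 by edgeR, and DESeq2 called 0 in each. Each count is below what this cutoff would pass if no gene differed and p-values were uniform. The largest member difference in KO was Fcgr1, at 0.60 ± 0.66 (adjusted p = 1, edgeR), with an approximate 95% interval of -0.68 to 1.89, and it was 1.34 without KO control library 3. In WT it was Fcer1g, with 1.96, 1.9 and 1.52 CPM in rPOSTN libraries against 1.2, 1.03 and 1.76 CPM in control libraries, a difference of 0.41 ± 0.28 (adjusted p = 0.999, edgeR). The ranges of rPOSTN and control libraries overlapped for each of the 5 members in both genotypes. For Fcgrt the approximate 95% interval ran from -0.15 to 0.44 in KO and from -0.39 to 0.01 in WT, the narrowest of the members tested.

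**Figure D5:**
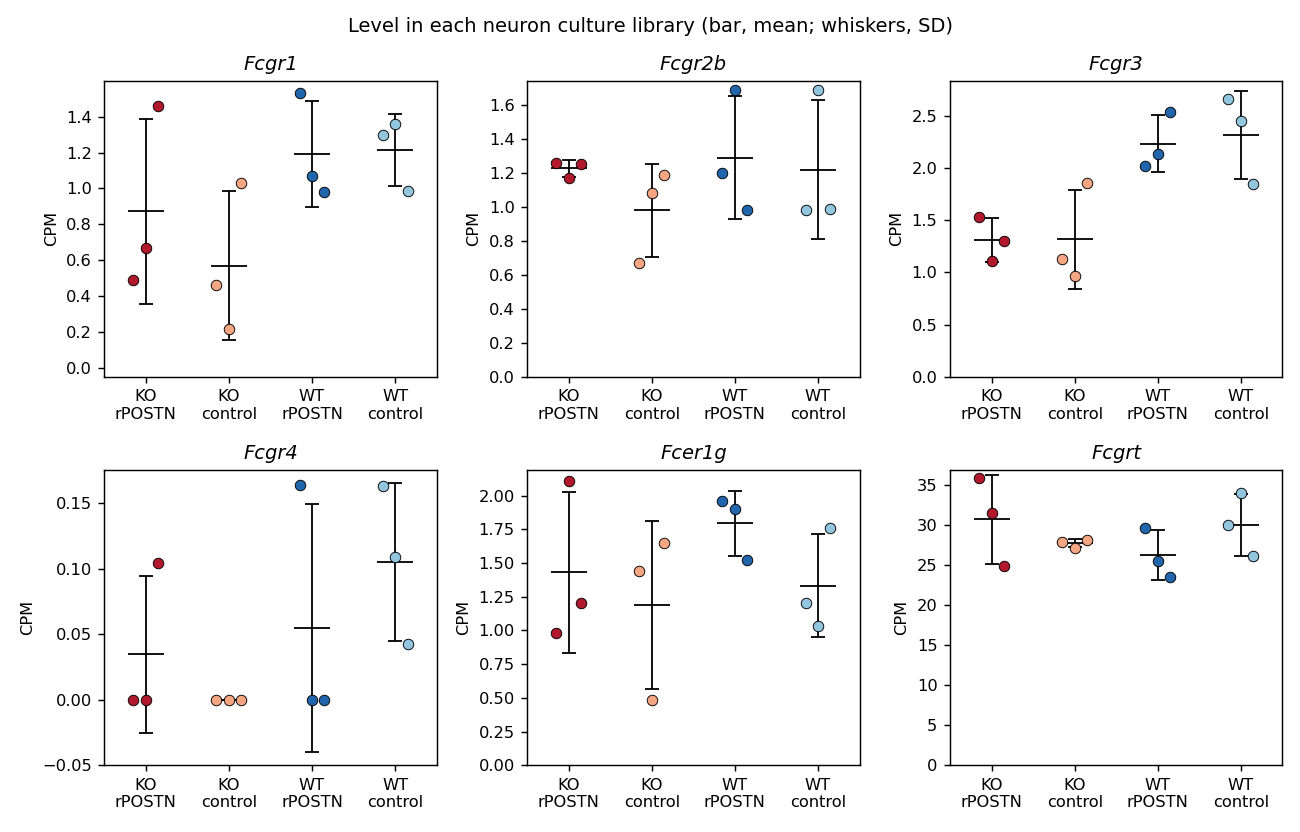
CPM of the 6 members in each culture library, with 1 point per library, the group mean as a bar and the SD as whiskers, for KO rPOSTN, KO control, WT rPOSTN and WT control. The rPOSTN and control points overlap for every member tested, and Fcgr4 is at 0 in 7 of the 12 libraries.

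Over all 8 groups the order of the mean CPM was led by IMQ ganglia for each member but Fcgrt. For Fcgr1 and Fcer1g WT IMQ stood above KO IMQ without overlap, and KO IMQ above the vehicle groups. For Fcgr4 and Fcgr3 the 2 IMQ groups overlapped each other and stood above both vehicle groups. For Fcgr2b KO IMQ stood just above WT IMQ without overlap. No member was called between the IMQ groups, so nothing is read from the order of KO IMQ and WT IMQ. KO and WT vehicle ganglia overlapped for every member, and all vehicle ganglia were above all cultures for Fcgr4, Fcgr1, Fcgr3, Fcgr2b and Fcer1g. The share of all genes that separate ganglia from cultures this way was not computed, and the tables were scaled apart. Nothing is read from this separation. For Fcgrt each group overlapped the next in the order, from ganglia to cultures.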

How the data were processed

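Raw counts per Ensembl gene, not normalized, were deposited by the authors in 3 tables, 1 for the ganglia and 1 for the cultures of each genotype. Per the labels' protocols, poly-A RNA was made into dUTP strand-specific libraries and sequenced in pairs of 150-base reads. Per the submitters' processing notes, HISAT2 2.1.0, Bowtie2 2.2.3, TopHat2 and GRCm39 were used, with no role given. The counting tool, its strand setting, its treatment of reads shared between genes and the annotation release were not given in the sources used here. Every one of the 22 columns was matched to 1 sample by its label, and 0 columns were left unused. No 2 libraries held identical values.

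Symbols, exon lengths and gene positions came from GENCODE M21 (GRCm38), for 55141 of 55487 genes. Coordinates are of GRCm38 and were not converted. All 6 members matched a RefSeq promoter. Fcgr3 has more than 1 promoter in that table and the one printed is the first. Antisense Gm45669 over Fcgrt held 49 counts against 14908 for Fcgrt over all libraries, and antisense Gm38204 over Fcgr2b held 0.

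The counts entered edgeR 4.0.16 (quasi-likelihood, robust, TMM, filterByExpr) in R 4.3.3, two-sided, adjusted over all genes of a comparison. The 4 ganglion groups shared 1 fit, and the cultures of each genotype were fitted apart, since genotype and table coincide there. SE is the log2 difference over the square root of F, and approximate 95% intervals are 1.96 SE to each side. A limit for 0 reads is 3 counts over the group, and covers counting error alone, because these reads carry no molecular identifiers and are not independent molecules. The script was tested on simulated data. DESeq2 1.42.0 and the other alternatives are given at the end. Figures were drawn with matplotlib 3.10.9.

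The members and lists were chosen with earlier results of these data known. Counts of calls and p-values of list genes between IMQ and vehicle ganglia are therefore a description. From each pathway list up to 6 genes with the smallest p in WT IMQ ganglia could be named, besides the members, Spi1, Syk, Inpp5d, Tyrobp, B2m and the immunoglobulin genes. The 3 nearest genes per member were named for likeness. Src, Fyn and genes of library checks were named outside this rule, after their values were seen. For 1 gene of the signalling list, counted with the others, single values are not reported here.

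Titles give replicate numbers. Residuals of same-numbered libraries correlated across genes at 0.872, 0.83 and 0.161 between KO and WT vehicle ganglia. The values were 0.39, 0.714 and 0.634 in KO cultures. They were 0.377, 0.368 and 0.678 in WT cultures. In these 3 sets the numbers were therefore read as pairs in an alternative fit with the replicate as a block. The main fits used no pairs, and values given without mention of a block come from them.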

Additional observations from a re-analysis of the deposited data

How the results depend on the processing

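The count of signalling genes called with IMQ, 16 of 30 in WT ganglia, ranged from 7 to 14 when single libraries were left out. In KO ganglia the count, 12 of 30, ranged from 5 to 14, and it was 4 in a fit to the 2 groups compared alone, which has fewer libraries. With DESeq2 size factors, DESeq2, no filter, no robust estimate or the replicate block it stayed within 12 to 14 in KO and 16 to 17 in WT. For the log2 differences between IMQ and vehicle, given with no test, the ranges of Fcgr4, Fcer1g and Fcgr1 are above. Fcgr3 ran from 1.05 to 1.45 in KO and from 1.12 to 1.43 in WT. Fcgr2b ran from 0.77 to 0.94 in KO and from 0.77 to 0.86 in WT. Fcgrt changed sign, from -0.21 to 0.07 in KO and from -0.16 to 0.15 in WT. Among alternatives for the shares of the receptor genes, 12 values moved beyond the SD and 20 did not. In the other 5 comparisons 0 members were called under every alternative, and with the replicate block too, so the paired fit changed no call (0 members for KO against WT in vehicle ganglia and for rPOSTN in both cultures). Same-numbered libraries correlated at 0.0503 between KO and WT IMQ ganglia and at 0.237 and 0.223 between WT IMQ and vehicle ganglia, and at 0.754 and 0.76 between KO IMQ and vehicle ganglia, with only 2 pairs each, so there the numbers are only a label. On total counts, 2 of 48 group means moved beyond the SD, Fcgr1 in WT IMQ ganglia to 9.08 CPM and Fcgr2b in KO IMQ ganglia to 15.3 CPM. The shifts of the ratios moved by less than the spread without either IMQ library. An offset for gene length, added after the data were seen, gave 14 called signalling genes in KO and 16 in WT, and moved Fcer1g in KO to 2.41. Between groups of 2 and 3 libraries, the number of libraries limits the precision of the genotype comparisons, and Fcgr4 with 0 to 3 reads per culture library could not be compared.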
